A study of Mus musculus with 24 samples.

Results

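The 35 genes described here are typical of monocytes and macrophages, and were followed in dendritic cell cultures grown from mouse bone marrow. They were chosen by symbol, matched to the Ensembl identifiers of the count files, and are 35 of the 55414 genes counted. The choice was made with results of these data known, and some of the genes were picked because they were lower under the compound AZD5582. Levels under AZD5582 against solvent in the cultures with GM-CSF are therefore given as a description, with a log2 change and its standard error and without a test.

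Monocytes leave the bone marrow, circulate and can become macrophages or antigen-presenting cells in tissues. Macrophages take up particles and dying cells through scavenger and Fc receptors, digest them in lysosomes, sense bacterial lipopolysaccharide and secrete lysozyme and matrix proteins. Bone marrow grown with GM-CSF gives a mixture of macrophage-like and dendritic-cell-like cells, so these genes are a regular part of the RNA of such cultures.

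RNA-seq was done on polyadenylated RNA of whole cultures of mouse marrow. FL cultures, named for type 1 conventional dendritic cells, had grown for 16 days with FLT3L at 200 ng/ml beside GM-CSF at 20 ng/ml. GM cultures, named for monocyte-derived dendritic cells, had grown with GM-CSF alone at 20 ng/ml and were harvested on day 8 by the extraction protocol, while the growth protocol gives day 9 as the usual day of use. FL cultures were sampled at the start (t0, 0 h), after 24 h in the solvent DMSO and after 24 h in 0.05 µM AZD5582. GM cultures were sampled at t0, after 24 h in DMSO and after 24 h in 0.1, 0.5 or 1 µM AZD5582. AZD5582 mimics SMAC, the natural antagonist of IAP proteins, which restrain cell death and regulate NF-kB signalling. Each of the 8 groups held 3 libraries. All cells came from C57BL/6JRj mice, either wild-type or Cas9-EGFP. Which genotype a given library has is not stated in the labels, so it cannot be set against the groups. GM libraries carry the numbers 1 to 3 of a shared culture name, and FL libraries the culture numbers 91, 94 and 95. The series calls them biological replicates, but whether the GM libraries came from separate animals is not given, and their p-values may measure a technical spread.

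The 24 libraries held 27M to 85.8M counts on genes (M, 1e6 counts), with a median of 51.75M. Levels are given in CPM, a gene's counts per fixed number of scaled library counts, which are not corrected for gene length, so levels of different genes are not compared. In FL cultures the 35 genes took 0.599% to 0.647% of all gene counts at t0, 0.242% to 0.605% in DMSO and 0.0878% to 0.306% at 0.05 µM. In GM cultures they took 3.71% to 4.19% at t0, 3.97% to 4.58% in DMSO and 0.803% to 0.956% at 1 µM. The lowest of the FL shares after 24 h was culture 91 in both DMSO and AZD5582, and results on FL cultures are given with and without that culture. Mitochondrial genes took 8.04% of the counts of replicate 1 at 1 µM in GM cultures, and 3.96% and 4.27% in the other libraries of that group. Of 12 dendritic cell genes listed, Itgax had 23.7 to 451 CPM in FL and 150 to 1160 CPM in GM cultures. Cd74 had 4700 to 15400 CPM in FL and 5480 to 10400 CPM in GM cultures. These levels alone do not settle the dendritic cell label. At t0, 10 of the 12 were called higher in FL than in GM cultures and 1 lower, where 23.4% and 17.5% of all genes were. Xcr1, the chemokine receptor of type 1 conventional dendritic cells, had 383, 105 and 147 CPM in FL cultures at t0 and at most 0.165 CPM in GM cultures. Because RNA was taken from whole cultures, fewer cells of a type and less RNA per cell cannot be told apart.

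In GM cultures most of the 35 genes were lower with AZD5582 than with DMSO, and the difference was larger at 0.5 µM than at 0.1 µM. At least a 2-fold lower level was seen for 23 genes at 0.1 µM, 25 at 0.5 µM and 28 at 1 µM, and a 2-fold higher level for 1, 0 and 0. Over all 16152 genes tested, 10.9%, 16.8% and 17.9% were at least 2-fold lower at these doses and 9.54%, 12% and 12.7% at least 2-fold higher. The median log2 change of the 35 was -1.40, -2.45 and -2.65, and that of all genes -0.01, -0.03 and -0.01. Since some members were picked in these comparisons, nothing is read from these counts. At the limit of 2-fold at 1 µM, Msr1 (-1.01) and Sirpa (-1.08) lay just inside and Ms4a6d (-0.77) and Lgals3 (-0.76) just outside. A change over the 24 h in DMSO came on top of this. Between DMSO and t0, 15 of the 35 rose, 8 fell and 12 did not pass an adjusted p of 0.05 in edgeR's quasi-likelihood test, where 27.2% of all genes rose and 20.3% fell. The DMSO libraries of that test also stand in the comparisons by which some genes were picked.

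**Figure D1:**
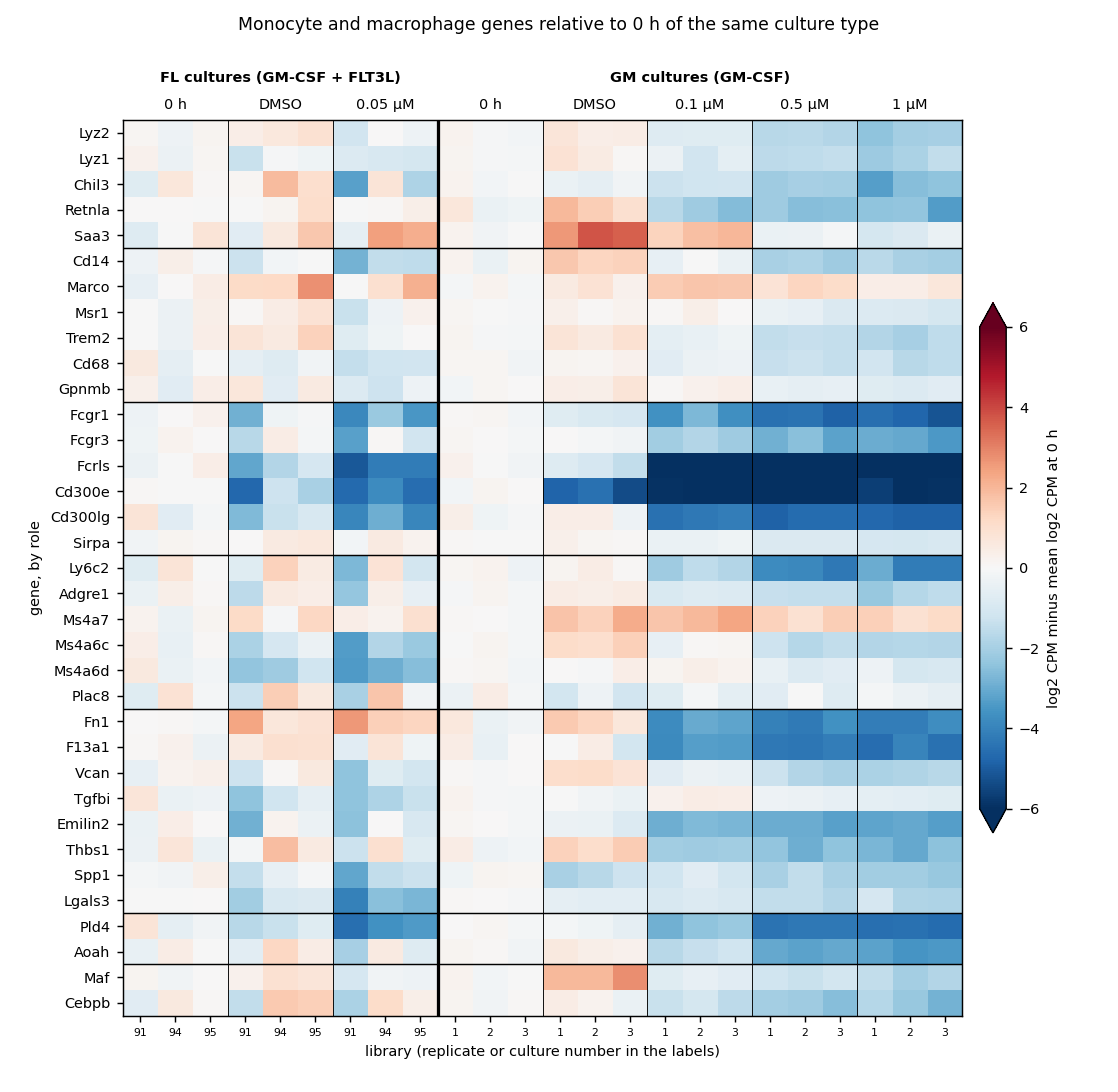
Log2 CPM of each of the 35 genes (rows, grouped by role) in each of the 24 libraries (columns), minus the gene's mean log2 CPM at 0 h in the same culture type; red is higher and blue lower than at 0 h. At 1 µM in GM cultures 26 of the 35 genes stood at least 2-fold below 0 h and 1, Ms4a7, at least 2-fold above it, while in FL cultures the columns of cultures 91, 94 and 95 differ from each other within DMSO and within 0.05 µM. The 1 µM libraries also stand in the comparisons by which some genes were picked.

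Of the 5 secreted and antimicrobial proteins, 3 rose over 24 h in DMSO, and all 5 were at least 2-fold lower at 1 µM than in DMSO. Beside this and the role counts below, 27.2% of all genes rose and 20.3% fell in DMSO. At 1 µM, 17.9% of all genes were at least 2-fold lower than in DMSO. Counts by role are a description only, since some genes were picked for falls under AZD5582. Lyz2 encodes the lysozyme of myeloid cells, an enzyme that cuts bacterial cell walls. It had 21600, 17500 and 16600 CPM at t0, 30100, 24600 and 25300 CPM in DMSO, 10700, 11200 and 11200 CPM at 0.1 µM, 5860, 5990 and 5390 CPM at 0.5 µM, and 3430, 4440 and 4670 CPM at 1 µM. No library of one of these groups overlapped with a library of a neighbouring group. Lyz2 rose by a log2 change of 0.51 ± 0.13 (SE) in DMSO against t0 (edgeR adjusted p = 0.00392), and its log2 change at 1 µM against DMSO was -2.57 ± 0.14. Its near-identical copy Lyz1, for which reads may be shared with Lyz2, had at most 9.72 CPM in any library and a log2 change of -2.65 ± 0.28 at 1 µM.

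Saa3, an acute-phase protein that macrophages make during inflammation, showed the steepest rise over time among the 35. Saa3 had 5.83, 4.13 and 4.86 CPM at t0, 31.9, 72.2 and 64.3 CPM in DMSO, 13, 18.1 and 20.8 CPM at 0.1 µM, 3.6, 3.79 and 4.48 CPM at 0.5 µM, and 2.09, 2.47 and 3.56 CPM at 1 µM. All DMSO libraries lay above all others, and at 1 µM all 3 lay below t0. The rise in DMSO was 3.49 ± 0.28 on the log2 scale (edgeR adjusted p = 4.73e-08), and the log2 change at 1 µM against DMSO was -4.26 ± 0.30. Retnla and Chil3 encode secreted proteins of alternatively activated mouse macrophages. Retnla had 9.41, 4.2 and 4.6 CPM at t0, 23.3, 16.9 and 11.7 CPM in DMSO, 1.47, 0.895 and 0.516 CPM at 0.1 µM, 0.901, 0.561 and 0.574 CPM at 0.5 µM, and 0.671, 0.688 and 0.115 CPM at 1 µM. Retnla rose in DMSO by 1.5 ± 0.41 on the log2 scale (edgeR adjusted p = 0.00688), and at 0.1 µM it was already 4.13 log2 units below DMSO (-4.13 ± 0.48), close to the -5.07 ± 0.53 at 1 µM. Chil3 fell over the 24 h in DMSO, by 0.40 ± 0.16 on the log2 scale (edgeR adjusted p = 0.0494). That call was lost without t0 library 1 or 3 (edgeR adjusted p = 0.182 and 0.0834) or DMSO library 1 or 2 (0.114 and 0.169). At 1 µM Chil3 had 135, 230 and 260 CPM, against 1020, 936 and 1180 CPM in DMSO, a log2 change of -2.23 ± 0.17.

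The bases before the start sites of Retnla and Saa3 are shown because both genes rose in DMSO and were lower under AZD5582, with different sensitivity to the lowest dose. Sequences are from RefSeq on GRCm38.p6, a build other than the one used for counting, and run over the 250 bases before the start of each gene, with position 0 as the start base. Capitals mark letters searched on both strands: GNGGAAGT for PU.1, the main transcription factor of myeloid cells, TTGCNNAA for C/EBP factors, TGCTGAC for MAF, and an NF-kB consensus.
Retnla (chr16:48842359-48842608, plus strand): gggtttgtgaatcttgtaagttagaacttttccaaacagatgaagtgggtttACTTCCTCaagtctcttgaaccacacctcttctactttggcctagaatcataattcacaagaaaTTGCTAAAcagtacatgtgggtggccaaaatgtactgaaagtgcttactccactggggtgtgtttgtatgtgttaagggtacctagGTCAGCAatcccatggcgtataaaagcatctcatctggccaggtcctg
Saa3 (chr7:46715677-46715926, minus strand): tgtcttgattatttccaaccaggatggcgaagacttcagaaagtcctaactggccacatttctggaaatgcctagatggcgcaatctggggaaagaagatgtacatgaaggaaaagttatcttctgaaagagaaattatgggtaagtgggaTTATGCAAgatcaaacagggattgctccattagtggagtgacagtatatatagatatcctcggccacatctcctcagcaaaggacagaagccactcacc
In Retnla the PU.1 letters lay at -198 to -191, the C/EBP letters at -134 to -127 and the MAF letters at -48 to -42. In Saa3 the C/EBP letters lay at -99 to -92. A window of 300 bases (250 before and 50 from the start) was found for 26 of the 35 genes. C/EBP letters were in 9 of the 26 genes and in 10.8% of all 32851 windows, PU.1 letters in 5 and 7.27%, MAF letters in 2 and 4.67%, and NF-kB letters in 0 and 0.411%. Of the 26 genes, 7 have more than 1 window, which raises their chance of a match. A match is a description of letters and not of binding.

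Of the 6 pattern recognition, scavenger and lysosomal proteins, 4 rose in DMSO and 5 were at least 2-fold lower at 1 µM than in DMSO. Cd14, the co-receptor for lipopolysaccharide, had 104, 66.5 and 101 CPM at t0, 269, 218 and 235 CPM in DMSO, 63, 86.7 and 66.5 CPM at 0.1 µM, 22.8, 24.3 and 20.1 CPM at 0.5 µM, and 28.6, 22.3 and 21 CPM at 1 µM. Its levels at 0.1 µM overlapped with those at t0, and those at 0.5 and 1 µM lay below both. Cd14 rose in DMSO by 1.40 ± 0.17 on the log2 scale (edgeR adjusted p = 3.19e-06), and its log2 change at 1 µM against DMSO was -3.22 ± 0.18. Trem2, a lipid-sensing receptor of macrophages, had 36.1, 30.8 and 42.9 CPM at 1 µM, against 213, 180 and 234 CPM in DMSO, a log2 change of -2.40 ± 0.13. Trem2 (0.75 ± 0.12, edgeR adjusted p = 5.65e-05) and the lysosomal glycoprotein gene Gpnmb (0.50 ± 0.12, edgeR adjusted p = 0.00275) also rose in DMSO. Gpnmb (-1.14 ± 0.13), the scavenger receptor gene Msr1 (-1.01 ± 0.13) and the lysosomal marker gene Cd68 (-1.48 ± 0.13) had smaller log2 changes at 1 µM.

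Marco, a scavenger receptor for bacteria and particles, followed another course. Marco had 51.1, 62.9 and 51.1 CPM at t0, 80.5, 100 and 66.6 CPM in DMSO, 161, 173 and 170 CPM at 0.1 µM, 95.9, 134 and 119 CPM at 0.5 µM, and 72.4, 72.8 and 87.4 CPM at 1 µM. Its 0.1 µM libraries lay above all others, and its 1 µM libraries overlapped with DMSO. Its log2 change against DMSO was 1.10 ± 0.14 at 0.1 µM, 0.59 ± 0.14 at 0.5 µM and 0.02 ± 0.14 at 1 µM, and it rose over time in DMSO by 0.57 ± 0.14 (edgeR adjusted p = 0.00231). The matrix protein genes Spp1 and Tgfbi had the same order of doses. Spp1, which encodes osteopontin, fell over the 24 h in DMSO, with 598, 739 and 974 CPM in DMSO, against 1920, 2560 and 2520 CPM at t0 (-1.61 ± 0.19, edgeR adjusted p = 1.51e-06). Its log2 change against DMSO was 0.69 ± 0.18 at 0.1 µM, -0.10 ± 0.18 at 0.5 µM and -0.45 ± 0.18 at 1 µM. Tgfbi had log2 changes of 0.66 ± 0.11, -0.08 ± 0.11 and -0.31 ± 0.11 at these doses.

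**Figure D2:**
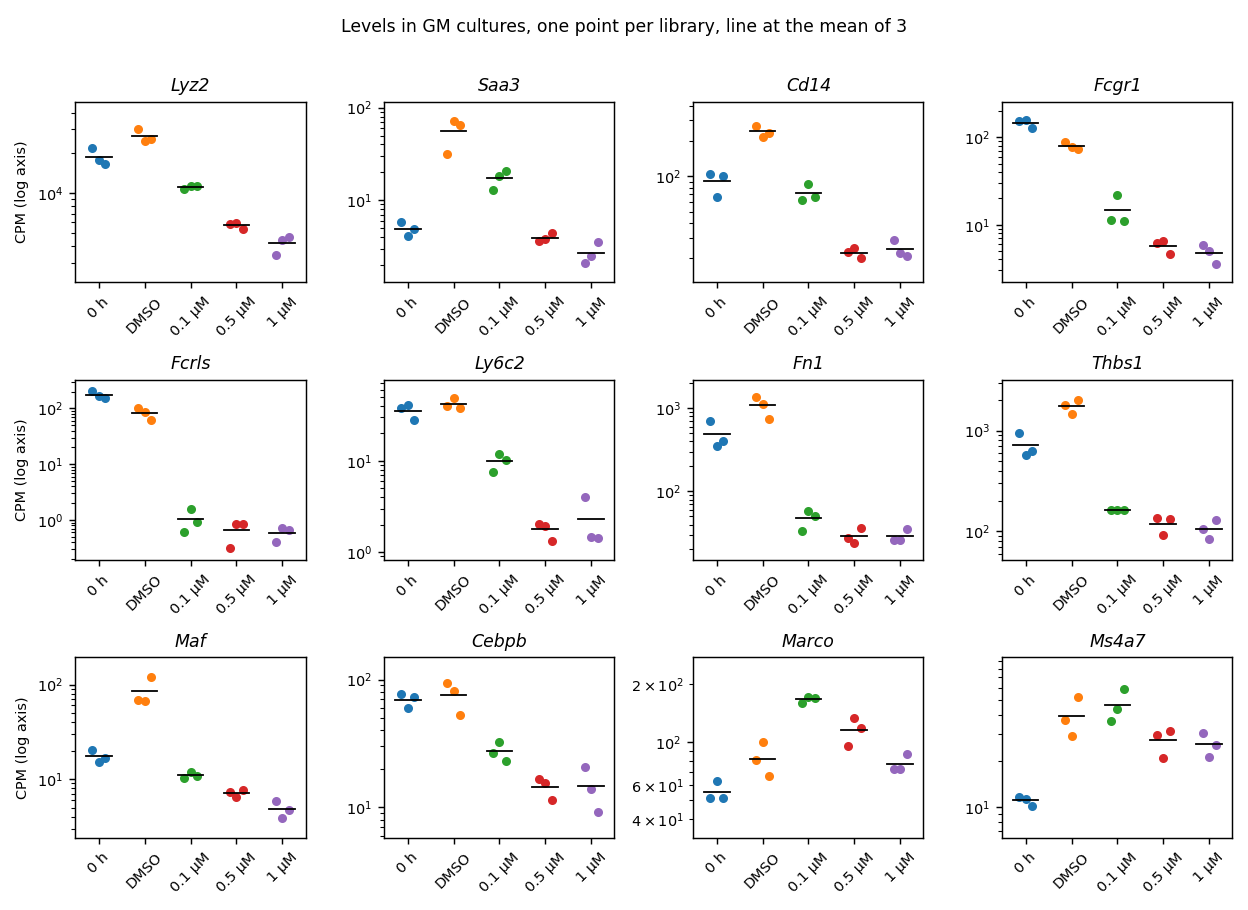
CPM (log axes, a separate range for each gene) of 12 of the genes in GM cultures at 0 h, in DMSO and at 0.1, 0.5 and 1 µM AZD5582, with 1 point for each of 3 libraries and a line at their mean. Saa3, Cd14 and Maf peak in DMSO, Fcrls is near 1 CPM at every dose, Marco peaks at 0.1 µM and Ms4a7 stays above its 0 h level at every dose.

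The 6 Fc and immunoglobulin-like receptors did not rise over time, with 3 that fell and 3 that did not pass the test, and all 6 were at least 2-fold lower at 1 µM than in DMSO. Fcgr1, the high-affinity receptor for IgG, had 155, 160 and 129 CPM at t0, 89.5, 77.9 and 73.1 CPM in DMSO, 11.4, 22.1 and 11.1 CPM at 0.1 µM, 6.17, 6.47 and 4.63 CPM at 0.5 µM, and 5.84, 4.96 and 3.52 CPM at 1 µM. Fcgr1 fell in DMSO by 0.90 ± 0.23 on the log2 scale (edgeR adjusted p = 0.004), and its log2 change at 1 µM against DMSO was -3.97 ± 0.26. Fcrls, an Fc receptor-like gene known in mice as a microglial marker, had 205, 167 and 151 CPM at t0, 101, 85 and 61.5 CPM in DMSO, 0.607, 1.57 and 0.932 CPM at 0.1 µM, 0.31, 0.842 and 0.846 CPM at 0.5 µM, and 0.398, 0.736 and 0.654 CPM at 1 µM. The lowest dose thus held nearly the whole difference for Fcrls. Its log2 change against DMSO was -6.28 ± 0.30 at 0.1 µM and -6.99 ± 0.32 at 1 µM, and it fell over time in DMSO by 1.09 ± 0.22 (edgeR adjusted p = 0.000648).

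Cd300e and Cd300lg, members of a family of immunoglobulin-like receptors, had few or no counts under AZD5582. Cd300e, found on monocytes, had 31.9, 40.4 and 35.9 CPM at t0 and 0.792, 1.16 and 0.388 CPM in DMSO, a fall of 5.48 ± 0.35 on the log2 scale (-5.48, edgeR adjusted p = 1.59e-09). This was the largest change over time among the 35 genes. At 0.5 µM it had 3 counts in all and in DMSO 168, a ratio of DMSO over 0.5 µM of 50 with a 95% counting interval of 16.8 to 245. Cd300lg had 17.6, 11.4 and 13.2 CPM at t0 and 18.4, 18.3 and 11.2 CPM in DMSO. At 1 µM it had 2 counts and in DMSO 3313, a ratio of DMSO over 1 µM of 1120 with an interval of 311 to 9290. These intervals cover counting error only. Fcgr3 (-2.95 ± 0.17), an activating receptor for IgG, and Sirpa (-1.08 ± 0.09), the receptor for CD47 that restrains uptake, were lower at 1 µM and did not pass the test over time (edgeR adjusted p = 0.601 and 0.129).

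The 6 genes grouped as surface markers split. Of them 3 rose in DMSO, 1 fell and 2 did not pass the test, and 3 were at least 2-fold lower at 1 µM. Ly6c2, the mark of classical monocytes, had 37.9, 40.6 and 27.7 CPM at t0, 39.5, 48.2 and 37.4 CPM in DMSO, 7.5, 11.9 and 10.1 CPM at 0.1 µM, 2.06, 1.95 and 1.32 CPM at 0.5 µM, and 4.05, 1.45 and 1.44 CPM at 1 µM. The t0 and DMSO libraries overlapped, and every treated library lay below them. Its log2 change at 1 µM was -4.08 ± 0.34, or -4.76 ± 0.26 without replicate 1, the library with the high mitochondrial share, and its reads may be shared with the near-identical Ly6c1. Ms4a6c and Ms4a7 encode membrane-spanning proteins of macrophages. Ms4a6c rose in DMSO by 1.18 ± 0.15 (edgeR adjusted p = 5.57e-06), and its log2 change at 1 µM against DMSO was -2.89 ± 0.17. Ms4a7 rose to 37, 29 and 52.5 CPM in DMSO, against 11.7, 11.3 and 10.1 CPM at t0 (1.83 ± 0.23, edgeR adjusted p = 5.52e-06), and had 30.3, 21.3 and 25.3 CPM at 1 µM. It was the one gene of the 35 that stood more than 2-fold above t0 at 1 µM (1.32 ± 0.22), while 26 stood at least 2-fold below it. Of all genes, 21.9% were 2-fold above and 22.5% 2-fold below. The 1 µM libraries also stand in the comparisons by which some genes were picked, so nothing is read from these counts.

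Adgre1, which encodes the macrophage marker F4/80, had 56, 84 and 95.6 CPM at 1 µM, against 377, 348 and 385 CPM in DMSO, a log2 change of -2.13 ± 0.13. It rose over time by 0.40 ± 0.13 (edgeR adjusted p = 0.0155), a call lost without t0 library 1 (edgeR adjusted p = 0.0568) or 3 (0.0717). Plac8 was at most 5.67 CPM in GM cultures. It fell over time by 1 ± 0.32 on the log2 scale (edgeR adjusted p = 0.0166), a call lost without t0 library 2 (edgeR adjusted p = 0.118) or DMSO library 1 (0.076) or 3 (0.072). Plac8 had a log2 change of 0.69 ± 0.33 at 1 µM, and Ms4a6d one of -0.77 ± 0.19.

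Of the 8 matrix, adhesion and coagulation proteins, 3 rose and 3 fell in DMSO, and 5 were at least 2-fold lower at 1 µM. Fn1, which encodes fibronectin, had 713, 355 and 401 CPM at t0, 1390, 1140 and 737 CPM in DMSO, 33.5, 57.4 and 50.9 CPM at 0.1 µM, 27.4, 24 and 36.7 CPM at 0.5 µM, and 25.9, 26.2 and 35 CPM at 1 µM. Every treated library lay below every t0 and DMSO library. Thbs1, which encodes the matrix protein thrombospondin 1, had 957, 570 and 624 CPM at t0, 1800, 1460 and 2010 CPM in DMSO, 163, 161 and 164 CPM at 0.1 µM, 134, 91.5 and 131 CPM at 0.5 µM, and 106, 83.1 and 128 CPM at 1 µM. Fn1 (1.14 ± 0.28, edgeR adjusted p = 0.00409) and Thbs1 (1.28 ± 0.20, edgeR adjusted p = 4.23e-05) rose in DMSO, and their log2 changes at 1 µM against DMSO were -5.12 ± 0.34 and -3.95 ± 0.22. Vcan, a proteoglycan of monocytes, rose over time by 1.01 ± 0.15 (edgeR adjusted p = 2.36e-05), with a log2 change of -2.79 ± 0.16 at 1 µM. F13a1, the A chain of coagulation factor XIII, had 13.1, 18.4 and 5.99 CPM in DMSO and 0.0746, 0.404 and 0.115 CPM at 1 µM (-5.89 ± 0.52, or -6.87 without 1 µM replicate 2). Emilin2, an elastic fibre protein, fell over time by 0.53 ± 0.12 on the log2 scale (-0.53, edgeR adjusted p = 0.00136) and had a log2 change of -2.56 ± 0.13 at 1 µM. Lgals3, which encodes galectin-3, also fell over time (-0.63 ± 0.17, edgeR adjusted p = 0.00622), with 2000, 1160 and 1120 CPM at 1 µM, against 2730, 2570 and 2570 CPM in DMSO (-0.76 ± 0.17, or -1.11 ± 0.10 without 1 µM replicate 1). The exons of Fn1, F13a1, Thbs1, Maf, Cebpb and Ms4a6c overlap an annotated gene on the opposite strand and those of Spp1 one on the same strand. The strand setting of the counting is not given, so their counts are uncertain to that extent.

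Both enzyme genes, Pld4 and Aoah, were at least 2-fold lower at 1 µM than in DMSO. Pld4, a nuclease of the endolysosome, had 325, 346 and 298 CPM at t0, 295, 272 and 224 CPM in DMSO, 43.4, 59.6 and 67.4 CPM at 0.1 µM, 14.4, 16.3 and 16.3 CPM at 0.5 µM, and 13.7, 14.2 and 12.5 CPM at 1 µM. Aoah, which removes acyl chains from lipopolysaccharide, had 47, 44.1 and 36.1 CPM at t0, 63.7, 54.3 and 50.2 CPM in DMSO, 12.8, 15.7 and 18.2 CPM at 0.1 µM, 4.59, 4.15 and 4.64 CPM at 0.5 µM, and 4.05, 3.16 and 3.48 CPM at 1 µM. Their log2 changes at 1 µM against DMSO were -4.19 ± 0.15 and -3.87 ± 0.16, and for both genes every 0.1 µM library lay between DMSO and 0.5 µM. Aoah rose over time by 0.39 ± 0.13 (edgeR adjusted p = 0.0213), a call lost without t0 library 3 (edgeR adjusted p = 0.13) or DMSO library 1 (0.118), and Pld4 did not pass the test (-0.30 ± 0.13, edgeR adjusted p = 0.0631). Pld4 passed it as lower without DMSO library 1 (-0.39 ± 0.14, edgeR adjusted p = 0.0398), and with other size factors (0.0388), no low-count filter (0.0133) or DESeq2 (0.0351). The bases before the start of Aoah, shown as an example of a gene with graded levels over the 3 doses, hold the C/EBP letters at -189 to -182.
Aoah (chr13:20793863-20794112, plus strand): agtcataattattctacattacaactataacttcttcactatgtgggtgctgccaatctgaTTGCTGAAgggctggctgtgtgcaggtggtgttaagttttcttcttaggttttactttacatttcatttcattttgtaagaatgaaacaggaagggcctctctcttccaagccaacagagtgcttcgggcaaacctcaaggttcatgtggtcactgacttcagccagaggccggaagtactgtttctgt

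Both transcription factors among the 35 were lower under AZD5582. Maf, a factor of mature macrophages, had 20.4, 15.1 and 16.6 CPM at t0, 68.3, 67 and 121 CPM in DMSO, 10.2, 12 and 10.7 CPM at 0.1 µM, 7.24, 6.42 and 7.66 CPM at 0.5 µM, and 5.94, 3.85 and 4.73 CPM at 1 µM. It rose over time by 2.29 ± 0.21 on the log2 scale (edgeR adjusted p = 9.87e-08), and its log2 change at 1 µM against DMSO was -4.03 ± 0.23. Cebpb, a factor of monocyte and macrophage development, had 76.8, 59.6 and 72.5 CPM at t0, 93.3, 80.9 and 52.5 CPM in DMSO, 26.8, 32.6 and 22.9 CPM at 0.1 µM, 16.6, 15.5 and 11.5 CPM at 0.5 µM, and 20.6, 13.9 and 9.26 CPM at 1 µM. Its DMSO libraries overlapped with t0 (0.11 ± 0.26, edgeR adjusted p = 0.76), and its log2 change at 1 µM was -2.26 ± 0.28.

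Sorted by both measures, 13 genes rose in DMSO and were at least 2-fold lower at 1 µM than in DMSO, 10 did not pass the test over time and were 2-fold lower, and 5 fell over time and were 2-fold lower. Of the 13 that rose, 11 stood at least 2-fold below t0 at 1 µM, where 22.5% of all genes did. The others were Saa3 (-0.76 ± 0.29) and Gpnmb (-0.64 ± 0.12). The remaining 7 genes, Marco, Ms4a7, Ms4a6d, Plac8, Tgfbi, Spp1 and Lgals3, lay within 2-fold of DMSO at 1 µM. These classes use the DMSO libraries in both measures and are given as a sorting only.

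The step from 0.1 to 0.5 µM compares treated libraries alone, without DMSO or t0, although the libraries of both doses also stand in the comparisons by which some genes were picked. Levels were lower at 0.5 µM than at 0.1 µM for 25 of the 35 genes and higher for 0, and 10 did not pass the test. Of all genes tested, 8.47% were lower and 2.98% higher. The median log2 step was -0.85 for the 35 and 0 for all genes. The largest steps that passed the test were those of Ly6c2 (-2.46 ± 0.34, edgeR adjusted p = 0.000233), Saa3 (-2.10 ± 0.27, edgeR adjusted p = 0.000147) and Pld4 (-1.83 ± 0.14, edgeR adjusted p = 2.29e-06). Marco (-0.51 ± 0.14), Spp1 (-0.79 ± 0.18) and Tgfbi (-0.73 ± 0.11), which had log2 changes of at least 0.66 above DMSO at 0.1 µM, were also lower at 0.5 µM (edgeR adjusted p = 0.0224, 0.00833 and 0.000333).

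Of these 25 calls, 7 were lost when single libraries were left out. Cebpb (-0.89 ± 0.27, edgeR adjusted p = 0.0455) was lost without any of the 6 libraries (edgeR adjusted p from 0.0512 without 0.1 µM library 3 to 0.173 without 0.1 µM library 2). Lyz1 (edgeR adjusted p = 0.0174) was lost without any but 0.1 µM library 2 (0.0503 to 0.0835), and Ms4a7 (0.0364) without any but 0.1 µM library 1 (0.0517 to 0.181). Marco was lost without 0.1 µM library 2 or 3 or 0.5 µM library 1 or 3 (0.0623 to 0.128), and Lgals3 (0.0224) without 0.1 µM library 2 or 3 or 0.5 µM library 3 (0.0521 to 0.108). Without 0.1 µM library 2, Spp1 (0.0633) and Adgre1 (0.0546, or 0.0111 with all libraries) were lost as well.

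For the 28 genes that were at least 2-fold lower at 1 µM, the log2 change at 0.1 µM was set over that at 1 µM. In 6 of them it came to at least 80%: Retnla (81.5%), Thbs1 (85.1%), Emilin2 (85.2%), Fn1 (87.1%), Fcrls (89.8%) and Cd300e (125%, on few counts at every dose). In the other 22 it ran up to 71.7% in Maf, with a median of 48.2%, and Msr1 had no lower level at 0.1 µM than in DMSO (0.03 ± 0.12). The step to 0.5 µM passed the test in 0 of the 6 and in 19 of the 22, a difference that the sorting itself largely sets, since both use the 0.1 µM libraries. With no low-count filter the step also passed for Fn1 (edgeR adjusted p = 2.38e-07) and Thbs1 (0.00246) of the 6.

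Between 0.5 and 1 µM no further difference passed the test, in 0 of the 35 genes and 0 of all 16152 genes in edgeR's quasi-likelihood test (0%). At an unadjusted p under 0.05 there were 8 of the 35 and 870 of all genes, and DESeq2 called 0 of the 35 and 8 of all. The median log2 step was -0.23 for the 35 and -0.01 for all genes. Lyz2, for example, had 3430, 4440 and 4670 CPM at 1 µM, against 5860, 5990 and 5390 CPM at 0.5 µM, groups that did not overlap (-0.45 ± 0.13, edgeR adjusted p = 0.827). The libraries of both doses also stand in the comparisons by which some genes were picked, so no further fall is read from these values.

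**Figure D3:**
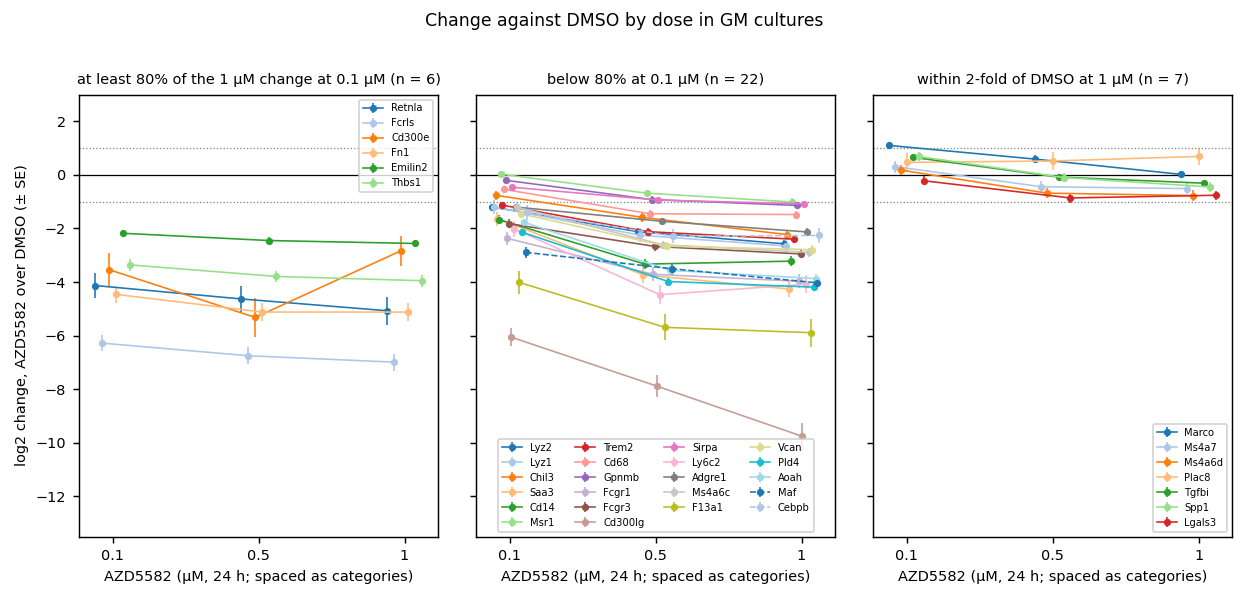
Log2 change against DMSO (± SE) at 0.1, 0.5 and 1 µM AZD5582 in GM cultures for each gene, in panels for the 6 genes with at least 80% of the 1 µM change at 0.1 µM, the 22 genes below that and the 7 genes within 2-fold of DMSO at 1 µM; doses are spaced as categories and dotted lines mark 2-fold. Lines in the first panel change little with dose except Cd300e, most in the second go down to 0.5 µM and then flatten, and Marco starts at 1.10 in the third.

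Markers of other cells also differed in the same GM libraries. The summed level of 14 neutrophil genes was 873 to 991 CPM at t0, 806 to 987 CPM in DMSO, 96.7 to 176 CPM at 0.1 µM, 42.7 to 57.5 CPM at 0.5 µM and 38.7 to 82.6 CPM at 1 µM. Of the 14, 12 passed the test as lower at 1 µM, where 28.2% of all genes did. S100a9, one of them, had 1.79, 0.475 and 1.14 CPM at 1 µM, against 123, 131 and 172 CPM in DMSO. The 5 B cell genes summed to 18.6 to 22.3 CPM at 1 µM, against 4.7 to 9.62 CPM in DMSO. All 5 passed the test as higher, where 26.9% of all genes did. T and NK cell genes summed to 0.19 to 0.771 CPM at 1 µM, against 1.01 to 1.8 CPM in DMSO, and erythroid genes to 0.289 to 0.57 CPM, against 0.101 to 0.242 CPM. Mast cell and basophil genes summed to 129 to 204 CPM at 1 µM, against 98.7 to 153 CPM in DMSO, megakaryocyte and platelet genes to 23 to 41.3 CPM, against 81.5 to 109 CPM, and stromal genes to 0.646 to 0.76 CPM, against 3.29 to 13.5 CPM. Dendritic cell genes summed to 9430 to 11400 CPM at 1 µM, against 11500 to 14800 CPM in DMSO, with 5 of 11 tested called higher and 4 lower. These lists were chosen with earlier results of these data known. The part of these cells in the levels of the 35 genes was not tested.

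A further list of 33 monocyte and macrophage genes outside the 35 was read as well. It was chosen with earlier results of these data known, so its counts and tests are no independent evidence of a lower level. Of 30 tested, 27 were lower and 1 higher at 1 µM than in DMSO, where 28.2% of all genes were lower and 26.9% higher, with a median log2 change of -2.91. Over time in DMSO 13 of the 30 rose and 7 fell, and 19 were lower at 0.5 than at 0.1 µM. Csf1r, the receptor for macrophage colony-stimulating factor, had 943, 912 and 884 CPM at t0, 1780, 1460 and 1480 CPM in DMSO, 301, 434 and 466 CPM at 0.1 µM, 177, 181 and 170 CPM at 0.5 µM, and 172, 155 and 156 CPM at 1 µM. Ccr2, the chemokine receptor by which monocytes leave the marrow, had 6.02, 6.13 and 3.81 CPM at 1 µM, against 465, 449 and 402 CPM in DMSO. The one gene that was higher was Cd9, a tetraspanin (0.37 on the log2 scale).

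At t0, before any treatment, FL cultures held much less RNA of most of the 35 genes than GM cultures. Of the 35, 28 were lower and 1 higher in FL cultures and 6 did not pass the test, where 17.5% of all 17262 genes tested were lower and 23.4% higher. The median log2 difference was -2.50 for the 35 and 0.09 for all genes. The 35 were chosen with results of these data known, and a fall in GM cultures can be seen only in genes with RNA there. The choice may thus favour genes high in GM cultures, so the counts and tests at t0 are no independent evidence of a difference. These groups differ at once in FLT3L, in the length of culture and in the batch of cells, which cannot be told apart. Lyz2 had 643, 479 and 651 CPM in FL cultures, against 21600, 17500 and 16600 CPM in GM cultures (-4.97 ± 0.27, edgeR adjusted p = 3.75e-11). Marco had 0.046, 0.279 and 0.56 CPM in FL cultures, against 51.1, 62.9 and 51.1 CPM in GM cultures (-7.59 ± 0.72, edgeR adjusted p = 6.01e-08). Retnla had 2 counts in all 3 FL libraries and 1167 in the 3 GM libraries, a ratio of GM over FL of 560 with a 95% counting interval of 155 to 4630. All members of the secreted, the pattern recognition, the enzyme and the transcription factor groups were lower in FL cultures.

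The exceptions lay in the other groups. There, 3 of 6 genes grouped as surface markers, 4 of 6 Fc and immunoglobulin-like receptors and 6 of 8 matrix genes were lower. Plac8, a cysteine-rich protein found in monocytes and several other blood cells, had 25, 78.1 and 38.2 CPM in FL cultures, against 3.01, 5.67 and 3.61 CPM in GM cultures (3.52 ± 0.73, edgeR adjusted p = 0.000582). Ly6c2 had 35.3, 102 and 57.7 CPM in FL cultures, against 37.9, 40.6 and 27.7 CPM in GM cultures, and did not pass the test (0.88 ± 0.62, edgeR adjusted p = 0.272). Cd300e, Cd300lg, Ms4a6c, Emilin2 and Lgals3 did not pass it either, with log2 differences from -1.52 to -0.36. Without culture 91 all 5 of these passed as lower and 33 of the 35 did, where 20.7% of all genes were lower and 25.7% higher. With all other libraries kept, Saa3 lost its call without FL t0 library 91 (-2.05 ± 0.81, edgeR adjusted p = 0.0582) and Ms4a6d (-0.99 ± 0.30, edgeR adjusted p = 0.0118) without FL t0 library 94 (0.0664) or 95 (0.0535). Neutrophil genes summed to 1290 to 4330 CPM in FL cultures at t0, against 873 to 991 CPM in GM cultures, and mast cell and basophil genes to 192 to 734 CPM, against 39 to 52.8 CPM. The part of these cells in the difference was not tested.

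**Figure D4:**
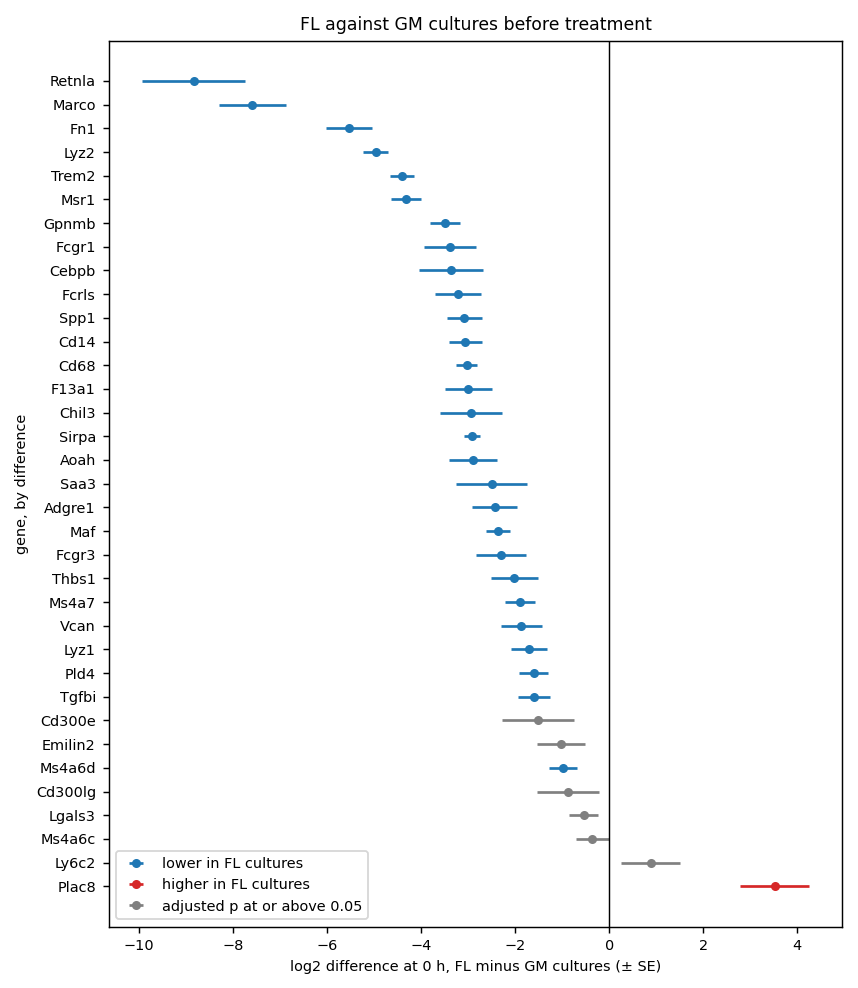
Log2 difference in level at 0 h between FL and GM cultures (FL minus GM, ± SE, 3 libraries each) for the 35 genes in order of the difference; colours give the call of edgeR's quasi-likelihood test. Differences run from -8.84 for Retnla to 3.52 for Plac8, with 28 genes lower in FL cultures, 1 higher and 6 not called. The choice of the 35 may favour genes high in GM cultures.

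In FL cultures the change over 24 h in DMSO differed between cultures. Of 34 genes tested (Retnla was too low), 1 was lower in DMSO than at t0 and 0 were higher, where 5.18% of all 15961 genes were lower and 4.96% higher. Ms4a6d, the one that fell, had 6.81, 8.11 and 16.4 CPM in DMSO, against 56.6, 28.5 and 33.5 CPM at t0 (-1.92 ± 0.42, edgeR adjusted p = 0.0293), a call lost without FL t0 library 91 (edgeR adjusted p = 0.121), 94 (0.0608) or 95 (0.0823) or DMSO library 91 (0.0548) or 94 (0.0592). With the culture number as a block, 3 genes were higher and 3 lower in DMSO, where 9.23% and 10.2% of all genes were. These were Marco (3.17 ± 0.52, edgeR adjusted p = 0.0165), Trem2 (0.97 ± 0.23, 0.03) and Fn1 (1.32 ± 0.32, 0.0319), and Fcrls (-2.16 ± 0.45, 0.0237), Ms4a6d (-2.01 ± 0.39, 0.0214) and Lgals3 (-1.36 ± 0.31, 0.0288). Across the cultures, 12 genes were lower in all 3 and 13 higher in all 3 (30.9% and 28.2% of all genes), and the median change was -0.78 in culture 91, 0.27 in culture 94 and 0.32 in culture 95. Without culture 91, 4 genes were higher and 3 lower (4.39% and 6.15% of all genes), or 10 and 6 with the block (10.2% and 12.3%). Markers of other cells moved in the same libraries. In cultures 91, 94 and 95, neutrophil genes summed to 2050, 10000 and 4090 CPM in DMSO, against 1290, 4330 and 2160 CPM at t0. Mast cell and basophil genes summed to 617, 1320 and 751 CPM in DMSO, against 192, 734 and 354 CPM at t0. Dendritic cell genes summed to 11400, 9790 and 13900 CPM in DMSO, against 25300, 18800 and 20500 CPM at t0. Thus neutrophil and mast cell sums were higher and dendritic cell sums lower in every culture, and their part in the levels of the 35 genes was not tested.

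The change over 24 h in DMSO was also tested for a difference between FL and GM cultures. It was lower in FL cultures for 4 of the 35 genes and higher for 0 (3.96% and 0.881% of all genes). The DMSO libraries of this test also stand in the comparisons by which some genes were picked, so its calls are not independent of that choice. Maf had 4.16, 6.81 and 5.77 CPM in DMSO, against 3.8, 2.86 and 3.43 CPM at t0 in FL cultures, and in GM cultures it rose to 68.3, 67 and 121 CPM in DMSO, against 20.4, 15.1 and 16.6 CPM at t0. The difference of the changes was -1.57 ± 0.36 on the log2 scale (edgeR adjusted p = 0.0141). It was -1.84 ± 0.47 for Cd14 (edgeR adjusted p = 0.0264), -2.20 ± 0.50 for Ms4a6c (edgeR adjusted p = 0.0128) and -2.05 ± 0.43 for Ms4a6d (edgeR adjusted p = 0.00785). With the FL culture numbers and the GM replicate numbers as blocks, 6 genes were lower and 1 higher, where 7.62% and 2.14% of all genes were. The block added Saa3 (-2.58 ± 0.52, edgeR adjusted p = 0.0045) and Vcan (-1.26 ± 0.35, 0.0295) as lower and Marco (2.44 ± 0.37, 0.000477) as higher. Without culture 91, 6 were lower and 3 higher (10.6% and 4.25% of all genes), the higher ones being Marco (2.27 ± 0.65, edgeR adjusted p = 0.0275), Cd300e (3.83 ± 0.63, 0.000517) and Spp1 (1.23 ± 0.31, 0.0111). In the unblocked test with all cultures, Cd14 lost its call without GM t0 library 2 (edgeR adjusted p = 0.074), GM DMSO library 1 (0.0654) or FL t0 library 94 (0.065).

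With 0.05 µM AZD5582, a dose not used in GM cultures, most of the genes were lower than in DMSO in each FL culture, and few passed the test. Of 34 genes tested, 26 were lower in all 3 cultures and 2, Saa3 and Fn1, higher in all 3, where 28% and 25.1% of all genes were. The median log2 change was -1.01, against -0.05 in all genes. The test called 2 genes lower and 0 higher (1.28% and 1.62% of all genes). The rule by which some genes were picked for falls under AZD5582 does not say in which cultures, so the counts and tests in FL cultures with AZD5582 are no independent evidence of a lower level. Pld4 had 3.76, 7.44 and 8.82 CPM in AZD5582, against 30.5, 38.4 and 58.5 CPM in DMSO (-2.68 ± 0.45, edgeR adjusted p = 0.0248). Fcrls had 0.0557, 0.545 and 0.52 CPM in AZD5582, against 1.64, 5.05 and 8.82 CPM in DMSO (-3.83 ± 0.82, edgeR adjusted p = 0.0473). Both calls were lost without any of several single libraries, while the log2 changes in those fits lay between -2.89 and -2.34 for Pld4 and between -4.20 and -3.19 for Fcrls. Pld4 lost its call without DMSO library 94 (edgeR adjusted p = 0.0605) or 95 (0.1) or AZD5582 library 91 (0.0606) or 95 (0.0938), and Fcrls without DMSO library 94 (0.107) or 95 (0.168) or AZD5582 library 91 (0.0782), 94 (0.0665) or 95 (0.164).

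With the culture number as a block, 8 genes were lower under AZD5582 and 0 higher, where 3.19% and 3.69% of all genes were. Beside Pld4 (-2.66 ± 0.47, edgeR adjusted p = 0.024) and Fcrls (-3.81 ± 0.51, 0.0111), these were Chil3 (-2.33 ± 0.52, 0.0448), Cd14 (-1.65 ± 0.30, 0.024), Trem2 (-1.32 ± 0.23, 0.0227), Gpnmb (-0.95 ± 0.19, 0.031), Thbs1 (-1.10 ± 0.23, 0.0368) and Lgals3 (-1.76 ± 0.31, 0.0238). Lgals3 had 167, 488 and 413 CPM in AZD5582, against 644, 1400 and 1500 CPM in DMSO, and Cd14 1.07, 3.53 and 3.33 CPM, against 4.06, 9.56 and 10.4 CPM. For both genes the groups did not overlap. Without culture 91, 11 genes were lower and 1, Fn1, higher (0.62 ± 0.16, edgeR adjusted p = 0.0432), where 6.05% and 8.03% of all genes were. With the block as well, 23 were lower and 2, Saa3 and Fn1, higher (11.6% and 12.8% of all genes). Fn1 had 67.3, 29.1 and 26.1 CPM in AZD5582, against 56.5, 17.3 and 19.6 CPM in DMSO, while in GM cultures it was lower at every dose. Doses and culture types differ together between these comparisons.

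**Figure D5:**
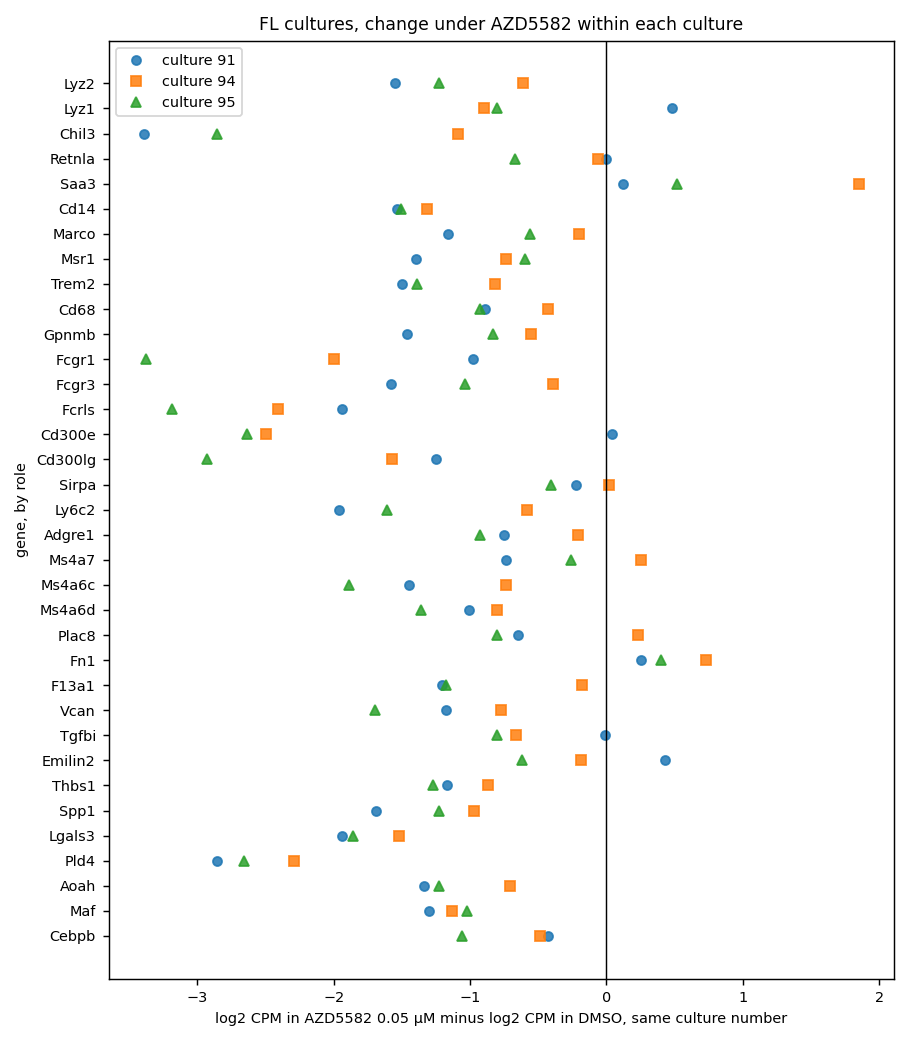
Log2 CPM at 0.05 µM AZD5582 minus log2 CPM in DMSO in each of the FL cultures 91, 94 and 95 (1 point per culture), for the 35 genes grouped by role; Retnla, near 0 CPM in these libraries, was not tested. Points of 26 of the 34 genes tested lie left of 0 in all 3 cultures, and those of Saa3 and Fn1 lie right of 0.

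In cultures 91, 94 and 95, neutrophil genes summed to 182, 3740 and 397 CPM at 0.05 µM, against 2050, 10000 and 4090 CPM in DMSO. The sum was lower in each culture. The unblocked test called 0 of the 14 genes, where 1.28% of all genes were lower and 1.62% higher. That test does not use the pairing by culture number, and blocked values for these genes are not given. Their part in the levels above was not tested. Of the further list of monocyte and macrophage genes, chosen with earlier results of these data known, 28 were tested in FL cultures. Of these, 7 were lower and 1 higher, where 1.28% and 1.62% of all genes were. C1qa, a chain of complement component C1q, was among the lower ones, with 1.27, 1.27 and 0.973 CPM in AZD5582, against 4.85, 9.29 and 8 CPM in DMSO. Mertk, a receptor for dying cells, was the one that was higher, with 25, 28.8 and 35.9 CPM in AZD5582, against 7.56, 9.41 and 11.4 CPM in DMSO.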

How the data were processed

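Each file holds raw counts per gene for 1 library, deposited by the authors with no normalisation. Per the submitters' processing notes, reads were handled with STAR 2.7.3a and HTSeq 0.12.4 on GRCm39, and DESeq2 1.30.1 is named as well. For the annotation release and the strand setting of the counting, nothing is given in the sources used here. Lines that name no gene (11% to 16.4% of counts) stayed out of library sizes and tests. The files give Ensembl identifiers, of which 52081 of 55414 had a symbol in the annotation table used. No coordinates are taken from the files, and promoter windows are RefSeq's on GRCm38.p6.

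Groups were compared with edgeR 4.0.16 (limma 3.58.1, R 4.3.3). Scaling was by TMM, filterByExpr removed low genes, and 1 mean per group was fitted with no covariate by the quasi-likelihood method with robust settings. The models held the 15 GM libraries (16152 genes), the 9 FL libraries (15961 genes) and all 24 libraries (17262 genes). Benjamini-Hochberg adjustment ran over all genes tested, and calls needed adjusted values below 0.05. Standard errors are the absolute log2 change over the square root of the F statistic. CPM use TMM library sizes over all 24 libraries, and log2 CPM add 0.5. The models were tested on simulated data. Same-numbered FL libraries deviated together from their group means (9 pairs, r from 0.135 to 0.689, median 0.274). In 18 FL pairs with different numbers r ran from -0.671 to 0.338, with a median of -0.142. The numbers were taken to pair the FL samples, and blocked values stand beside those results. The 35 genes and the gene lists were chosen with earlier results of these data known. Values in every library are given for the members of each role with the largest changes at 1 µM and over time among those that averaged 10 CPM or more in some group, and for those with the largest FL changes. Alternatives were other size factors, no filter, DESeq2 1.42.0, a replicate block and each library left out; the results without culture 91 were added after seeing the data.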

Additional observations from a re-analysis of the deposited data

Results flagged for a closer look

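The change over 24 h in DMSO differed between FL and GM cultures for 4 of the 35 genes in edgeR's test of that difference without a block. Blocks for the FL culture numbers and the GM replicate numbers gave 7 calls, with Saa3 and Vcan lower and Marco higher in addition. Without culture 91, 9 were called. On the log2 scale the change in FL cultures minus that in GM cultures was -1.84 ± 0.47 for Cd14 (edgeR adjusted p = 0.0264), -2.20 ± 0.50 for Ms4a6c (edgeR adjusted p = 0.0128), -2.05 ± 0.43 for Ms4a6d (edgeR adjusted p = 0.00785) and -1.57 ± 0.36 for Maf (edgeR adjusted p = 0.0141). Ms4a6c had 7.14, 13.6 and 21.6 CPM in DMSO, against 36.8, 20 and 28.8 CPM at t0 in FL cultures, and 78.1, 74.9 and 97.9 CPM in DMSO, against 35.6, 41.4 and 33.1 CPM at t0 in GM cultures. Culture type, day of culture and culture batch cannot be told apart in this comparison. Its DMSO libraries also stand in the comparisons by which some genes were picked, so its calls are not independent of that choice.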

How the results depend on the processing

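No called change of a single gene turned its direction under any alternative run, while some values near 0 that were not called changed sign. Of the values of single genes under the alternatives, 1858 counted as the same, 123 passed the threshold in addition, 59 no longer passed it and 7 moved. In the GM comparisons of AZD5582 with DMSO no threshold was used. There a log2 change counted as the same if it shifted by less than the spread between replicates. The 7 that moved lay at 0.5 or 1 µM with a GM library left out. In the other comparisons the same means called in both runs, and values called in neither were not counted. The 1858 are therefore not a count of calls that held. In FL cultures under AZD5582 the genes called lower were 2, but 1 with no low-count filter, 8 with DESeq2, 8 with the replicate block, 0 to 9 with single libraries left out, 11 without culture 91 and 23 without it and with the block, and genes called higher were 1 and 2 in the last of these settings. Over time in FL cultures 3 were higher and 4 lower with DESeq2, 3 and 3 with the replicate block, 4 and 3 without culture 91, 10 and 6 without it and with the block, and 0 to 1 lower with single libraries left out. For the difference in change over time between culture types, 1 was higher with DESeq2, 1 with the replicate block, 3 without culture 91 and 0 to 1 with single libraries left out, and 2 were lower with no low-count filter. Between 1 and 0.5 µM, 3 genes (Chil3, Maf and Marco) were lower with no low-count filter. Genes at least 2-fold higher than DMSO were 0 to 1 at 0.1 µM and 0 to 1 at 1 µM with single libraries left out. The causes were not tested. Deviations of same-numbered GM libraries had correlations of 0.01 to 0.226 over 30 pairs, with a median of 0.077. In 60 GM pairs with different numbers these ran from -0.127 to 0.057, with a median of -0.038. What the GM numbers stand for is not given, and the main GM tests did not use them. The block there changed the calls of Maf (adjusted p = 0.0456) and Thbs1 (adjusted p = 0.0346) in the step from 0.1 to 0.5 µM. No paired analysis was possible for FL against GM cultures at t0 because the culture numbers are nested in the culture type. With 3 libraries a group, and a biological coefficient of variation of 0.39 in FL and 0.146 in GM cultures, smaller differences are harder to call in FL cultures, and genes with few counts carry wide counting error.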
